A study of Mus musculus with 6 samples.

Results

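The genes of the unfolded protein response (UPR) and the targets of the transcription factor ATF4 were followed in LPS-treated bone marrow-derived macrophages (BMDMs) from mice that lack the scaffold protein GIT1 in myeloid cells. The members were the rows of the deposited count table that carry the symbol of 1 of 36 genes, and all 36 were found, each in a single row, among the 52550 genes of the table. They comprised 14 ER chaperones and folding factors, 4 genes of ER-associated degradation, 6 sensors and transcription factors, 4 stress-response targets of ATF4 and 8 ATF4-driven amino acid genes. All mice were C57BL/6. GIT1 CKO mice carried floxed Git1 alleles and Cre driven by Lyz2, a gene of myeloid cells, and the control mice, labelled GIT1 CWT and described in the study as GIT1 fl/fl, carried the floxed alleles without Cre. Marrow cells of both groups were grown for 7 days with 25 ng/ml of the growth factor M-CSF and then received 100 ng/ml of LPS, a bacterial wall component that macrophages sense. The age of the mice and the length of the LPS treatment were not given for these libraries in the sources used here. Each group had 3 mRNA libraries, called biological replicates in the study. The labels do not tie each library to its own mouse, so p-values measure the spread between these libraries. No untreated library was used here, so every difference below is between genotypes under LPS and not a response to LPS.

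Proteins that enter the ER are folded there by chaperones. When unfolded protein builds up, 3 membrane sensors start the UPR. IRE1, encoded by Ern1, splices the mRNA of Xbp1, ATF6 is cut to release a transcription factor, and PERK, encoded by Eif2ak3, phosphorylates eIF2. XBP1 and ATF6 induce chaperones and degradation factors through promoter elements called ERSE. Phosphorylated eIF2 lowers translation in general and raises that of ATF4, which induces genes of amino acid uptake and synthesis through C/EBP-ATF elements. Other eIF2 kinases, such as the amino acid sensor GCN2, also act through ATF4, so the ATF4 genes can be induced without the ER sensors. In macrophages LPS signalling is known to engage IRE1 and XBP1.

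Stretches of promoters are shown because the elements named above are the letters through which the chaperones and the amino acid genes are known to be induced. A window of 250 bases before to 50 bases after the start site was available for 32 of the 36 members (RefSeq, GRCm38.p6). No window was matched for Hyou1, Manf, Atf6 or Slc7a5. The motifs were searched on both strands. ERSE was taken as CCAAT and CCACG with 9 bases between them, and ERSE-II as ATTGG and CCACG with 1 base between them, so the elements share the letters CCACG but cannot be the same match. The C/EBP-ATF element was taken as TGATGNAA and the core of the UPR element (UPRE) as TGACGTGG. Capitals mark the motif letters, and each stretch is written 5′ to 3′ on the strand of its gene.
Hspa5, chr2:34772010-34772058, plus strand: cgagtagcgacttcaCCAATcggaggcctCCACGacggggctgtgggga
Hsp90b1, chr10:86705518-86705671, minus strand: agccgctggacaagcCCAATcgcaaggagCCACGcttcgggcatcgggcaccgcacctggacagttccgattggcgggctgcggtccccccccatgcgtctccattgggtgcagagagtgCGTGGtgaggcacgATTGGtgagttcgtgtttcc
Canx, chr11:50325785-50325833, minus strand: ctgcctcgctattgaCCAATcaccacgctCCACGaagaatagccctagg
Pdia6, chr12:17266476-17266524, plus strand: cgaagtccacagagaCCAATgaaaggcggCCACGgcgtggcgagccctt
Calr, chr8:84847060-84847108, minus strand: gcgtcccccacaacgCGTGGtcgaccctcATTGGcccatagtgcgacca
Herpud1, chr8:94386302-94386402, plus strand: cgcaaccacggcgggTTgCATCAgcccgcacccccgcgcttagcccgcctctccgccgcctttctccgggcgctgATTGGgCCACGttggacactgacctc
Asns, chr6:7693210-7693247, minus strand: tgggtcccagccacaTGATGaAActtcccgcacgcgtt
Pck2, chr14:55540148-55540185, plus strand: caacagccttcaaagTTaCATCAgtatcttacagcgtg

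ERSE matched in 7 of 12 chaperone genes with a window, Hspa5, Hsp90b1, Dnajc3, Creld2, Calr, Canx and Pdia6, and in Syvn1, against 0.137% of the 27025 genes with a window. It matched in 0 of 7 amino acid genes. ERSE-II matched in Dnajb11 and Herpud1, against 0.0444% of all genes. The C/EBP-ATF element matched in Asns, Pck2, Trib3 and Herpud1, against 4.51% of all genes. That is 2 of 7 amino acid genes with a window and 0 of 12 chaperone genes. Herpud1 was thus the member with letters of both kinds in its window. The UPRE core matched in 0 of the 32 members, against 0.714% of all genes. A match describes the letters of the window and does not show that a factor binds there.

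Total counts per library ran from 61895190 to 157485640, with the 3 deepest libraries in GIT1 CKO. GIT1 CWT replicate 2 stood apart. Its levels moved with the GC content of the transcript, with a Spearman's rho across 16253 genes of 0.65 between GC content and the deviation of the library, against -0.34 to -0.39 in the GIT1 CKO libraries, -0.42 in GIT1 CWT replicate 1 and 0.20 in replicate 3. Git1 had 72.8, 74.5 and 73.8 CPM (counts relative to the total of the library, scaled by edgeR) in GIT1 CKO, against 71.9, 103 and 82.2 CPM in GIT1 CWT, and counts over the whole gene cannot check a deletion of part of it. The 4 Y-linked genes summed to 0 to 0.0248 CPM in GIT1 CKO and to 26.5 to 81.5 CPM in GIT1 CWT libraries. Xist is expressed from an inactive X chromosome. It had 1051, 1111 and 1058 CPM in GIT1 CKO, against 607, 226 and 384 CPM in GIT1 CWT. Every GIT1 CWT library thus held RNA of both kinds, and both were highest in replicate 1 and lowest in replicate 2. The sex of the donors and the genotype cannot be told apart. The 10 macrophage markers were all detected, at a summed 32140 to 33690 CPM in GIT1 CKO and 48230 to 56390 CPM in GIT1 CWT. Lyz2, the gene that drives the Cre, made up much of this sum and was called lower (log2 fold change -1.14, adjusted p = 0.0153 in edgeR), while 5 of the 10 markers were above 0 and 5 below, with a median of -0.03. The 10 neutrophil markers and the 7 T cell and NK cell markers stayed under 1 CPM in every library. The 10 cell cycle markers summed to 583 to 610 CPM in GIT1 CKO, against 249 to 399 CPM in GIT1 CWT. All 10 had a log2 fold change above 0, with a median of 0.81, and 1 was called higher by edgeR.

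The 4 largest fold changes among the 36 genes belonged to ATF4 targets and were all higher in GIT1 CKO. The ATF4 targets as a whole did not all lie on the same side. Asns, Mthfd2, Slc7a5 and Phgdh, which serve amino acid synthesis and uptake and folate-linked carbon transfer, were 1.73 to 2.16 times higher in GIT1 CKO, whereas Pck2, also an ATF4 target, was at 0.662 times the GIT1 CWT level. Atf4 itself lay at 1.04 times. Ern1 and Eif2ak3, which encode ER stress sensors, were at 0.776 and 0.734 times. No chaperone had a 95% interval clear of 1 on the higher side. Pdia4, Hyou1 and Manf had intervals clear of 1 on the lower side. None of these differences passed the adjusted test. With edgeR's quasi-likelihood test and Benjamini-Hochberg adjustment over the 16287 genes tested, 0 of 36 members had an adjusted p under 0.05, against 0.755% of all genes tested. The smallest adjusted p was 0.0705, for Mthfd2.

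At an unadjusted p under 0.05, 4 members were higher, against 9.06% of all genes, and 8 were lower, against 8.45%. The study's own rule (fold change over 1.5 and unadjusted p under 0.05) was applied to the edgeR fit made here, not to the authors' own p-values. By it, Asns, Phgdh, Mthfd2 and Slc7a5 were higher, against 6.48% of all genes, and Pck2 was lower, against 2.14%. The 3 GIT1 CKO libraries lay above all 3 GIT1 CWT libraries for 4 members, against 13.6% of all genes, and below them for 12, against 15.1%. DESeq2 called 7 members at an adjusted p under 0.05, against 7.38% of the 15006 genes to which it gave an adjusted p, and limma-voom called 0. The 7 were Asns, Phgdh, Mthfd2 and Slc7a5, higher, and Ern1, Eif2ak3 and Pck2, lower. With the trend over GC content taken out of each library, edgeR called 9, against 4.95% of all genes. These were the same 7 with Pdia4 and Herpud1, lower. The median log2 fold change of all members was -0.08, with 14 above 0 and 22 below, beside a median of 0.01 over all genes tested. For 14 of 36 members the 95% interval lay within a 1.5-fold change in either direction.

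**Figure D1:**
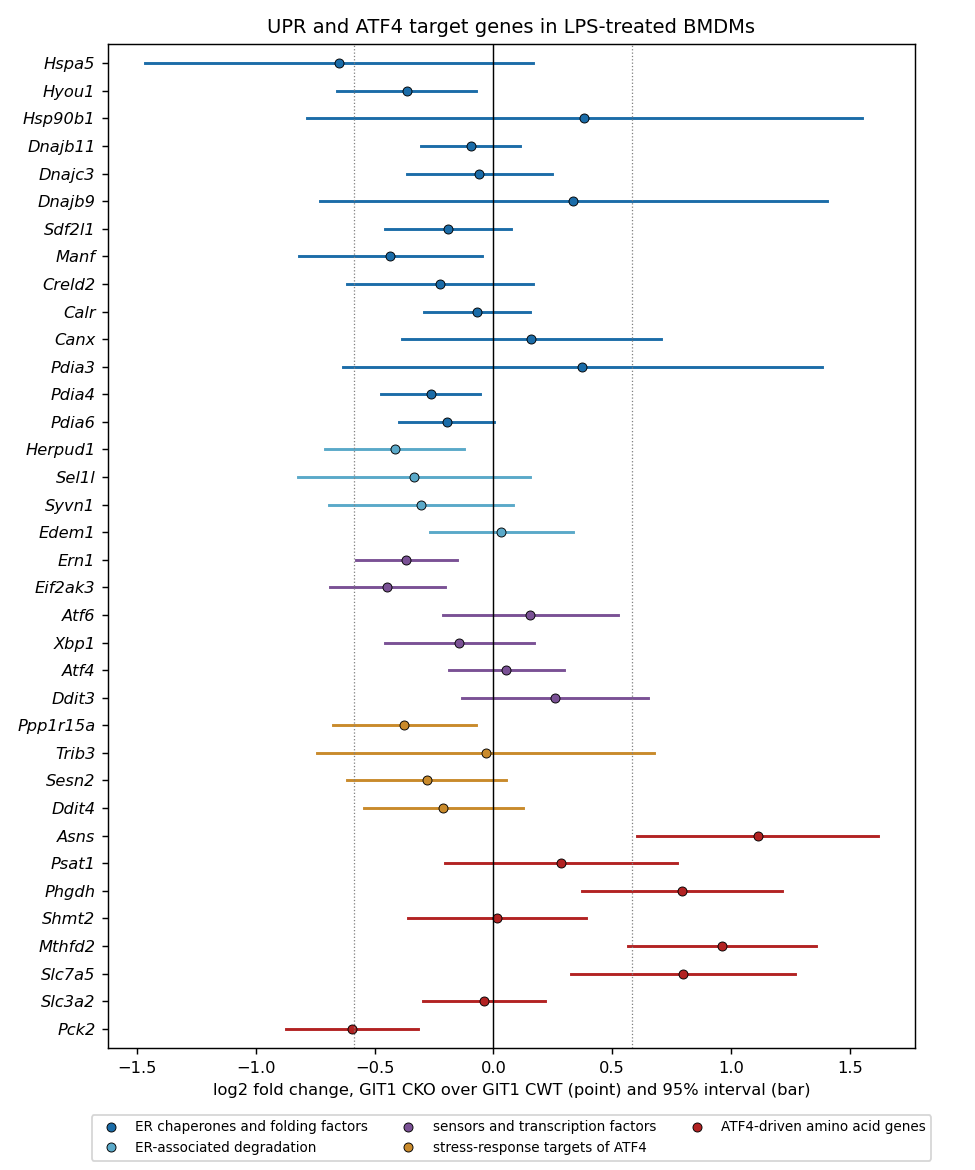
Log2 fold change (GIT1 CKO over GIT1 CWT, x axis) of the 36 members, in 1 row each and coloured by role. Bars give the 95% interval derived from edgeR's fit, and dotted lines mark a 1.5-fold change. Asns, Mthfd2, Slc7a5 and Phgdh have intervals wholly to the right of 0. Those of Pck2, Eif2ak3, Ern1, Herpud1, Pdia4, Hyou1, Manf and Ppp1r15a lie wholly to the left. Hspa5, Hsp90b1, Pdia3 and Dnajb9 have the widest intervals of the chaperones.

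Among the sensors and transcription factors, the 2 kinases were lower in every GIT1 CKO library. Ern1 had 156, 160 and 160 CPM in the GIT1 CKO libraries, against 190, 219 and 204 CPM in the GIT1 CWT libraries (replicates 1 to 3 in this order throughout). The groups did not overlap, and the log2 fold change was -0.37 (SE 0.0895, adjusted p = 0.142 in edgeR). It stayed negative under all 17 alternatives, with adjusted p-values of 0.0247 to 0.489. The gene lies at chr11:106394650-106487852 on the minus strand.

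Eif2ak3, at chr6:70844515-70905245 on the plus strand, had 54.8, 55.8 and 48.5 CPM in GIT1 CKO, against 71.6, 75.7 and 69.5 CPM in GIT1 CWT. Here too the highest GIT1 CKO library lay below the lowest GIT1 CWT library. The log2 fold change was -0.45 (SE 0.101, adjusted p = 0.123 in edgeR, 0.00679 to 0.445 over the alternatives). An unstranded count cannot separate it from an opposite-strand model that shares 485 exon bases and held 1.75% as many counts.

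The libraries of the groups overlapped for all transcription factors of the set. Atf4 had 93.6, 96.0 and 109 CPM in GIT1 CKO and 90.6, 96.6 and 100 CPM in GIT1 CWT, and its fold of 1.04 had a 95% interval of 0.878 to 1.23. Since ATF4 is governed largely at translation, its mRNA is not a measure of its protein.

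Xbp1, whose spliced and unspliced mRNA are counted together here, had 165, 165 and 146 CPM in GIT1 CKO and 192, 146 and 188 CPM in GIT1 CWT. Its fold was 0.906 (0.729 to 1.13), and GIT1 CWT replicate 2 lay just below the lowest GIT1 CKO library. Atf6 had 201.9, 205 and 198 CPM in GIT1 CKO and 206, 140 and 197 CPM in GIT1 CWT, where replicate 2 was again the low library, with a fold of 1.11 (0.864 to 1.44).

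Ddit3 encodes CHOP, the factor tied to cell death under prolonged ER stress. It had 19.8, 19.4 and 19.6 CPM in GIT1 CKO and 13.6, 20.4 and 15.2 CPM in GIT1 CWT. The groups overlapped through GIT1 CWT replicate 2, and the log2 fold change was 0.26 (adjusted p = 0.436 in edgeR) with all libraries and 0.47 (adjusted p = 0.0652) without that library. The model shares 68 exon bases with Mars on the opposite strand, which held 119% as many counts. Over the 6 genes, the median log2 fold change was -0.04, with 3 above 0 and 3 below.

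The ER chaperones ranged widely in level, and none passed the test. They lay at 7.21 to 221 CPM per kb of exon in GIT1 CKO and 9.28 to 230 in GIT1 CWT. The median log2 fold change of the 14 was -0.14, with 4 above 0 and 10 below. Hspa5 encodes BiP, the chaperone that holds the sensors inactive and the usual readout of the UPR. It had 325, 318 and 310 CPM in GIT1 CKO, against 774, 278 and 445 CPM in GIT1 CWT. The GIT1 CKO libraries were close together and the GIT1 CWT libraries were spread around them, so the fold of 0.637 had a 95% interval of 0.362 to 1.12 (adjusted p = 0.364 in edgeR). The log2 fold change was -0.91 without GIT1 CWT replicate 2 and -0.19 without GIT1 CWT replicate 1.

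Hsp90b1 encodes GRP94, the HSP90 of the ER, which folds Toll-like receptors among others. It had 774, 786 and 833 CPM in GIT1 CKO and 1099, 244 and 492 CPM in GIT1 CWT. Pdia3, an oxidoreductase that works with the lectin chaperones, had 672, 690 and 719 CPM in GIT1 CKO and 879, 237 and 489 CPM in GIT1 CWT. Dnajb9, a J-domain co-chaperone that returns BiP to IRE1, had 68.1, 68.2 and 76.1 CPM in GIT1 CKO and 100, 28.2 and 39.6 CPM in GIT1 CWT. In all 3 genes the GIT1 CKO libraries fell between GIT1 CWT replicate 1 and replicate 3.

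The log2 fold changes of these 3 genes were 0.38, 0.37 and 0.34 with all libraries. They were 0.03, 0.05 and 0.04 without GIT1 CWT replicate 2, and 1.11, 0.93 and 1.06 without GIT1 CWT replicate 1, when Dnajb9 passed the test (adjusted p = 0.0294 in edgeR). The value for each therefore rested on which GIT1 CWT library was kept. Canx, a membrane-bound lectin chaperone, had 413, 427 and 489 CPM in GIT1 CKO and 520, 273 and 397 CPM in GIT1 CWT. Its log2 fold change of 0.16 was -0.17 with the GC trend removed.

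Calr, the soluble counterpart of Canx, had 617, 612 and 663 CPM in GIT1 CKO and 658, 611 and 715 CPM in GIT1 CWT, and its fold of 0.954 had an interval of 0.817 to 1.11. Dnajb11, a J-domain partner of BiP, had 83.5, 82.2 and 80.5 CPM in GIT1 CKO and 85.7, 92.5 and 84.8 CPM in GIT1 CWT, with a fold of 0.936 (0.810 to 1.08). The change in these genes, if any, was thus bounded to less than 1.5-fold in either direction.

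A further group of chaperones was lower in every GIT1 CKO library by small amounts. Pdia4, an oxidoreductase, had 123, 125 and 126 CPM in GIT1 CKO, against 153, 140 and 157 CPM in GIT1 CWT, with a log2 fold change of -0.26 (SE 0.0868, adjusted p = 0.210 in edgeR, 0.0264 to 0.552 over the alternatives). Pdia6, a related oxidoreductase that also acts on IRE1, had 179, 172 and 181 CPM in GIT1 CKO, against 196, 215 and 199 CPM in GIT1 CWT, with a fold of 0.873 (0.760 to 1.00). Hyou1, a large HSP70-like chaperone, had 48.0, 48.5 and 59.9 CPM in GIT1 CKO, against 62.7, 69.6 and 69.0 CPM in GIT1 CWT, with a log2 fold change of -0.36 (adjusted p = 0.216). With Dnajb11, Manf and Sdf2l1, these made 6 of 14 chaperones whose groups did not overlap, all lower, beside 15.1% of all genes tested that were lower without overlap.

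Manf, a secreted ER stress protein, had 61.3, 45.5 and 42.6 CPM in GIT1 CKO and 68.5, 61.4 and 72.1 CPM in GIT1 CWT, with a log2 fold change of -0.43 (adjusted p = 0.246 in edgeR). Its gene model overlaps Rbm15b by 14 exon bases on the same strand and Vprbp by 146 on the opposite strand, and these held 61.3% and 26.2% as many counts, so the share of its counts that is its own is uncertain. Sdf2l1, which acts with Dnajb11, had 44.9, 43.6 and 45.7 CPM in GIT1 CKO and 47.0, 57.4 and 48.7 CPM in GIT1 CWT. Dnajc3, an inhibitor of PERK and a BiP co-chaperone, averaged 158 ± 3.06 CPM in GIT1 CKO, against 164 ± 25.8 CPM in GIT1 CWT (SD, n = 3 each). Creld2, a secreted stress marker, averaged 21.1 ± 1.26 CPM in GIT1 CKO, against 24.6 ± 5.28 CPM in GIT1 CWT. The groups overlapped in both genes.

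The genes of ER-associated degradation had a median log2 fold change of -0.32, with 1 of 4 above 0. Herpud1, which organises the degradation complex at the ER membrane, had 106, 104 and 103 CPM in GIT1 CKO, against 120, 161 and 135 CPM in GIT1 CWT. It was the member of this set whose groups did not overlap, with a log2 fold change of -0.42 (SE 0.123, adjusted p = 0.185 in edgeR, 0.0461 to 0.521 over the alternatives). Without GIT1 CWT replicate 2, the highest library, it was -0.27 (adjusted p = 0.135). Syvn1, the ubiquitin ligase of the complex, had 66.2, 68.7 and 66.4 CPM in GIT1 CKO and 68.2, 103 and 76.9 CPM in GIT1 CWT, where the value of 103 was that of replicate 2. Syvn1 shares 91 exon bases with Mrpl49 on the opposite strand, which held 25.7% as many counts.

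Sel1l, the adaptor of Syvn1, had 132, 143 and 199 CPM in GIT1 CKO and 227, 213 and 158 CPM in GIT1 CWT, with GIT1 CKO replicate 3 above the other GIT1 CKO libraries and inside the GIT1 CWT range. Edem1, which directs misfolded glycoproteins to degradation, had 249, 264 and 242 CPM in GIT1 CKO and 286, 213 and 238 CPM in GIT1 CWT, with a fold of 1.02 (0.832 to 1.26).

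All 4 stress-response targets of ATF4 had a log2 fold change below 0, with a median of -0.25, and none passed either rule. Ppp1r15a encodes GADD34, which reverses the phosphorylation of eIF2. It had 24.6, 22.9 and 26.3 CPM in GIT1 CKO, against 28.3, 36.2 and 31.2 CPM in GIT1 CWT, with a log2 fold change of -0.37 (SE 0.126, adjusted p = 0.217 in edgeR). Sesn2, a leucine sensor upstream of mTORC1, had 59.5, 61.9 and 59.3 CPM in GIT1 CKO, against 62.8, 87.8 and 69.0 CPM in GIT1 CWT. In both genes the libraries of the groups did not overlap and GIT1 CWT replicate 2 was the highest.

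Ddit4, an inhibitor of mTORC1, had 6.14, 5.93 and 7.20 CPM in GIT1 CKO and 7.06, 7.27 and 7.97 CPM in GIT1 CWT, with a fold of 0.864 (0.685 to 1.09). Trib3, a pseudokinase that restrains ATF4, was the member with the fewest counts, 964 over the 6 libraries. It had 1.53, 1.80 and 1.74 CPM in GIT1 CKO and 1.33, 2.49 and 1.36 CPM in GIT1 CWT. Without GIT1 CWT replicate 2, its log2 fold change of -0.03 became 0.35 (adjusted p = 0.397 in edgeR), so no direction can be given for it.

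Of the ATF4-driven amino acid genes, 6 of 8 had a log2 fold change above 0 and the median was 0.54. Asns makes asparagine. It lies at chr6:7675169-7693254 on the minus strand and carries the C/EBP-ATF letters shown above just before its start site. It had 8.46, 9.63 and 10.2 CPM in GIT1 CKO, against 4.36, 3.28 and 5.47 CPM in GIT1 CWT. Every GIT1 CKO library lay above every GIT1 CWT library, with a log2 fold change of 1.11 (SE 0.212, 95% interval 0.61 to 1.62, adjusted p = 0.0883 in edgeR, 0.000236 to 0.370 over the alternatives).

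Mthfd2, a mitochondrial folate enzyme at chr6:83305691-83325908 on the minus strand, had 15.3, 13.9 and 13.0 CPM in GIT1 CKO, against 8.48, 7.30 and 5.89 CPM in GIT1 CWT. The groups did not overlap, and the log2 fold change was 0.96 (SE 0.166, 95% interval 0.57 to 1.36, adjusted p = 0.0705 in edgeR, 5.37e-05 to 0.330 over the alternatives). GIT1 CWT replicate 2 was the middle library of its group here. The log2 fold change was 0.99 without that library and 0.99 with the GC trend removed.

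Phgdh, the first enzyme of serine synthesis from glucose, at chr3:98313170-98339990 on the minus strand, had 5.99, 6.88 and 6.46 CPM in GIT1 CKO, against 3.37, 4.48 and 3.29 CPM in GIT1 CWT. The log2 fold change was 0.79 (SE 0.176, adjusted p = 0.117 in edgeR) and 0.98 (adjusted p = 0.0334) without GIT1 CWT replicate 2, which was the highest of its group. The adjusted p ran from 0.00426 to 0.449 over the alternatives.

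Slc7a5, the catalytic chain of the LAT1 transporter of large neutral amino acids, at chr8:121881150-121907694 on the minus strand, had 3.68, 3.88 and 4.16 CPM in GIT1 CKO, against 1.90, 2.75 and 2.07 CPM in GIT1 CWT. Its log2 fold change was 0.80 (SE 0.197, adjusted p = 0.145 in edgeR) and 1.00 (adjusted p = 0.0454) without GIT1 CWT replicate 2, and the adjusted p ran from 0.0138 to 0.467. Slc3a2, the heavy chain that pairs with Slc7a5 and with other light chains, had 150, 148 and 152 CPM in GIT1 CKO and 135, 168 and 160 CPM in GIT1 CWT. Its fold of 0.974 had an interval of 0.815 to 1.16, and its groups overlapped.

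The other genes of serine and folate metabolism passed neither rule. Psat1, the enzyme after Phgdh, had 14.8, 19.4 and 12.2 CPM in GIT1 CKO and 11.7, 15.0 and 11.4 CPM in GIT1 CWT, with overlapping groups and a log2 fold change of 0.28 (adjusted p = 0.482 in edgeR). Shmt2, which passes a carbon unit from serine to folate in mitochondria, had 22.8, 23.0 and 24.4 CPM in GIT1 CKO and 19.6, 28.5 and 21.2 CPM in GIT1 CWT, with a fold of 1.01 (0.780 to 1.31).

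Pck2, the mitochondrial phosphoenolpyruvate carboxykinase, at chr14:55540266-55550017 on the plus strand, was lower in GIT1 CKO, and its window also holds the C/EBP-ATF letters. It had 36.6, 38.2 and 36.6 CPM in GIT1 CKO, against 49.5, 62.9 and 55.9 CPM in GIT1 CWT. The groups did not overlap, and the log2 fold change was -0.59 (SE 0.116, 95% interval -0.87 to -0.32, adjusted p = 0.0928 in edgeR, 0.00168 to 0.402 over the alternatives). Asns, Phgdh, Mthfd2 and Slc7a5 passed the study's rule under all 17 alternatives and Pck2 under 10.

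**Figure D2:**
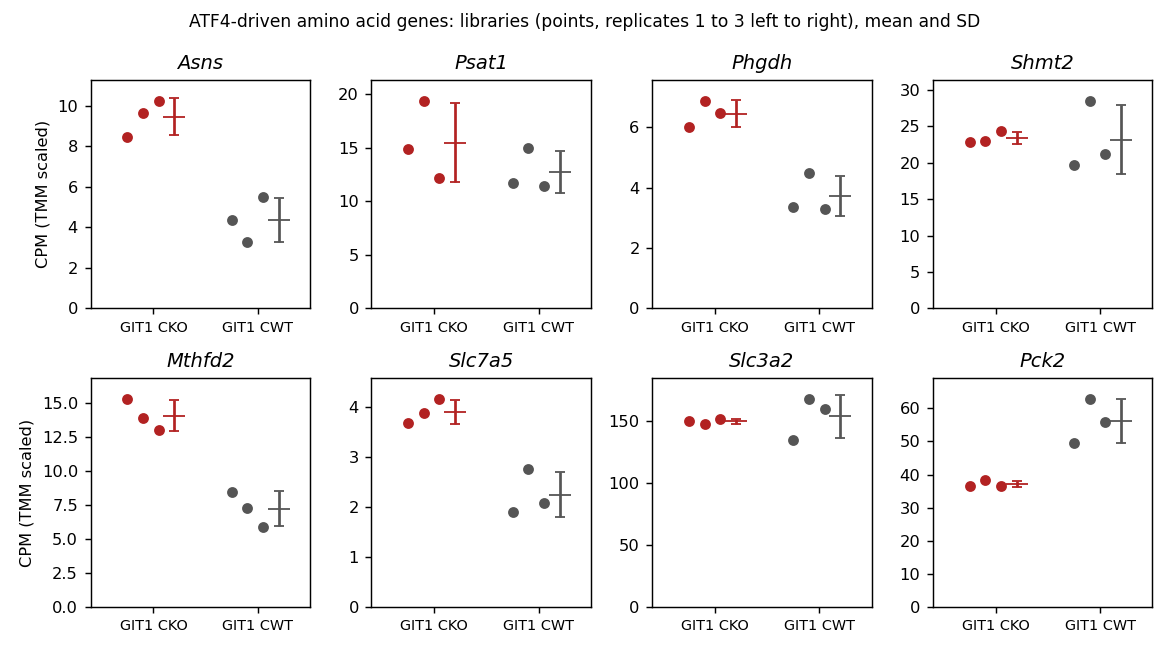
CPM (y axis, from 0) of the 8 ATF4-driven amino acid genes in the 3 GIT1 CKO libraries (red, left) and the 3 GIT1 CWT libraries (grey, right), 1 panel per gene, with the mean and SD beside the points. Asns, Phgdh, Mthfd2 and Slc7a5 lie higher in all 3 GIT1 CKO libraries and Pck2 lower, while Psat1, Shmt2 and Slc3a2 overlap.

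The ER chaperones and the amino acid genes were then set side by side. Their median log2 fold changes were 0.54 over the 8 amino acid genes and -0.14 over the 14 chaperones, a difference of 0.68 that ran from 0.55 to 0.79 over the alternatives. By the study's rule, 4 amino acid genes were higher and 1 lower, and 0 chaperones passed in either direction, beside 6.48% higher and 2.14% lower over all genes tested. Of the amino acid genes 4 lay wholly higher and 1 wholly lower, and of the chaperones 0 lay wholly higher and 6 wholly lower, beside 13.6% wholly higher and 15.1% wholly lower over all genes tested.

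The same contrast was read in each library as the mean log2 deviation of the amino acid genes from their 6-library means, minus that of the chaperones. It was 0.19, 0.32 and 0.17 in the GIT1 CKO libraries and -0.62, 0.19 and -0.26 in the GIT1 CWT libraries. GIT1 CWT replicate 2 thus fell within the GIT1 CKO range, while replicates 1 and 3 lay below it. The mean deviation of the chaperones was -0.26 in replicate 2, where they were low, and 0.31 in replicate 1, where they were high. The GIT1 CKO libraries held the chaperones between -0.05 and 0.02 and the amino acid genes between 0.17 and 0.27.

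**Figure D3:**
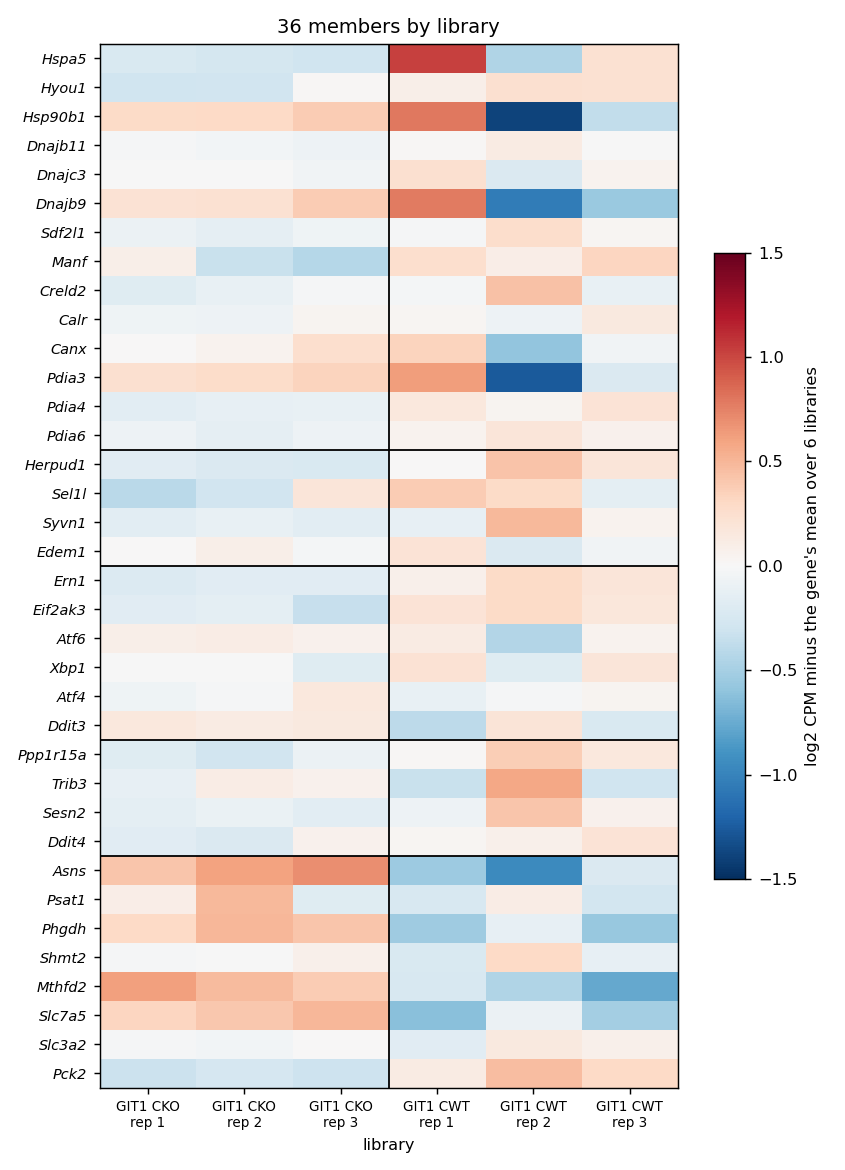
Log2 CPM of the 36 members (rows, grouped by role between black lines) in the 6 libraries (columns, GIT1 CKO left of GIT1 CWT), as the difference from the mean of each gene over all libraries, with red above and blue below. The GIT1 CKO columns resemble each other, and GIT1 CWT replicate 2 is the column with the deepest blue, in Hsp90b1, Pdia3, Dnajb9 and Asns.

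The spread among the members was mostly inside GIT1 CWT. The coefficient of variation was larger in GIT1 CWT than in GIT1 CKO for 29 of 36 members, with medians of 4.45% in GIT1 CKO and 15.7% in GIT1 CWT. It was not computed over all genes tested, so the wider spread is not read as a trait of the members. Over all genes tested, Pearson's r of log2 CPM was 0.978 to 0.989 between GIT1 CKO libraries and 0.952 to 0.971 between GIT1 CWT libraries. The distance of GIT1 CWT replicate 2 from the mean of replicates 1 and 3 went with the GC content of the transcript, with a Spearman's rho of 0.69 over the 36 members and 0.64 over 16253 genes. These points share the same libraries, and the values are a description. The distance was -1.59 for Hsp90b1 and -1.16 for Dnajb9, with 42.1% and 40.6% GC, and 0.88 for Trib3, with 58.2% GC. It was below 0 for 9 of 14 chaperones and for 1 of 8 amino acid genes, Asns. The difference of medians between the amino acid genes and the chaperones was 0.73 with the GC trend removed and 0.79 without GIT1 CWT replicate 2.

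**Figure D4:**
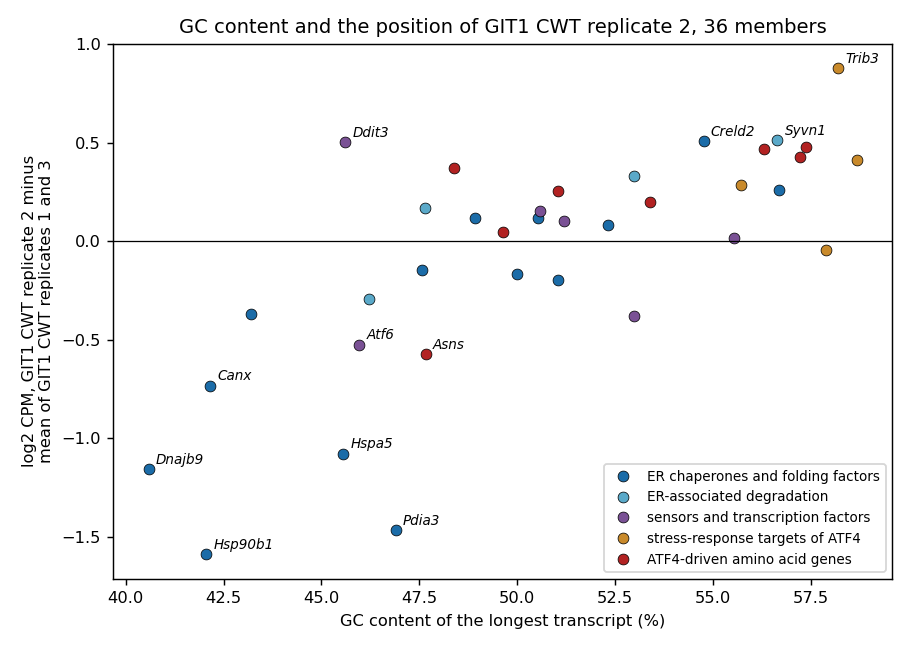
GC content of the longest transcript (x axis, percent) against the log2 CPM of GIT1 CWT replicate 2 minus the mean of GIT1 CWT replicates 1 and 3 (y axis), with 1 point per member, coloured by role. Hsp90b1, Pdia3, Dnajb9 and Hspa5, with 40.6% to 46.9% GC, lie far below 0. The other members in this GC range are less low. Canx (42.2%) lies at -0.73, Atf6 (46.0%) at -0.53 and Dnajc3 (43.2%) at -0.37. Edem1 (46.2%) lies at -0.29 and Ddit3 (45.6%) at 0.50. Trib3 is the highest.

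Settings moved Asns and Mthfd2 less than Hspa5 and Hsp90b1, but more than some other chaperones. Over all 17 alternatives the log2 fold change of Asns ran from 0.97 to 1.33 and that of Mthfd2 from 0.86 to 1.09, with 1.33 and 0.86 both reached without GIT1 CWT replicate 3. Over the same alternatives that of Hspa5 ran from -0.91 to -0.19 and that of Hsp90b1 from 0.03 to 1.11. Some other chaperones, such as Pdia4 (-0.31 to -0.20) and Dnajb11 (-0.12 to -0.03), moved less than Asns and Mthfd2. Asns passed the test without GIT1 CWT replicate 2 (adjusted p = 0.0479 in edgeR), with Phgdh and Slc7a5, and Mthfd2 without GIT1 CWT replicate 1 (adjusted p = 0.0232), with Dnajb9, Herpud1, Ern1 and Pck2. Over the whole table, 400 genes passed without GIT1 CWT replicate 2 and 1159 without GIT1 CWT replicate 1, against 123 with all libraries. No member passed without GIT1 CWT replicate 3 or without any single GIT1 CKO library. Over the whole table, 1 gene passed without GIT1 CWT replicate 3, and 3, 4 and 92 without GIT1 CKO replicates 1, 2 and 3.

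**Figure D5:**
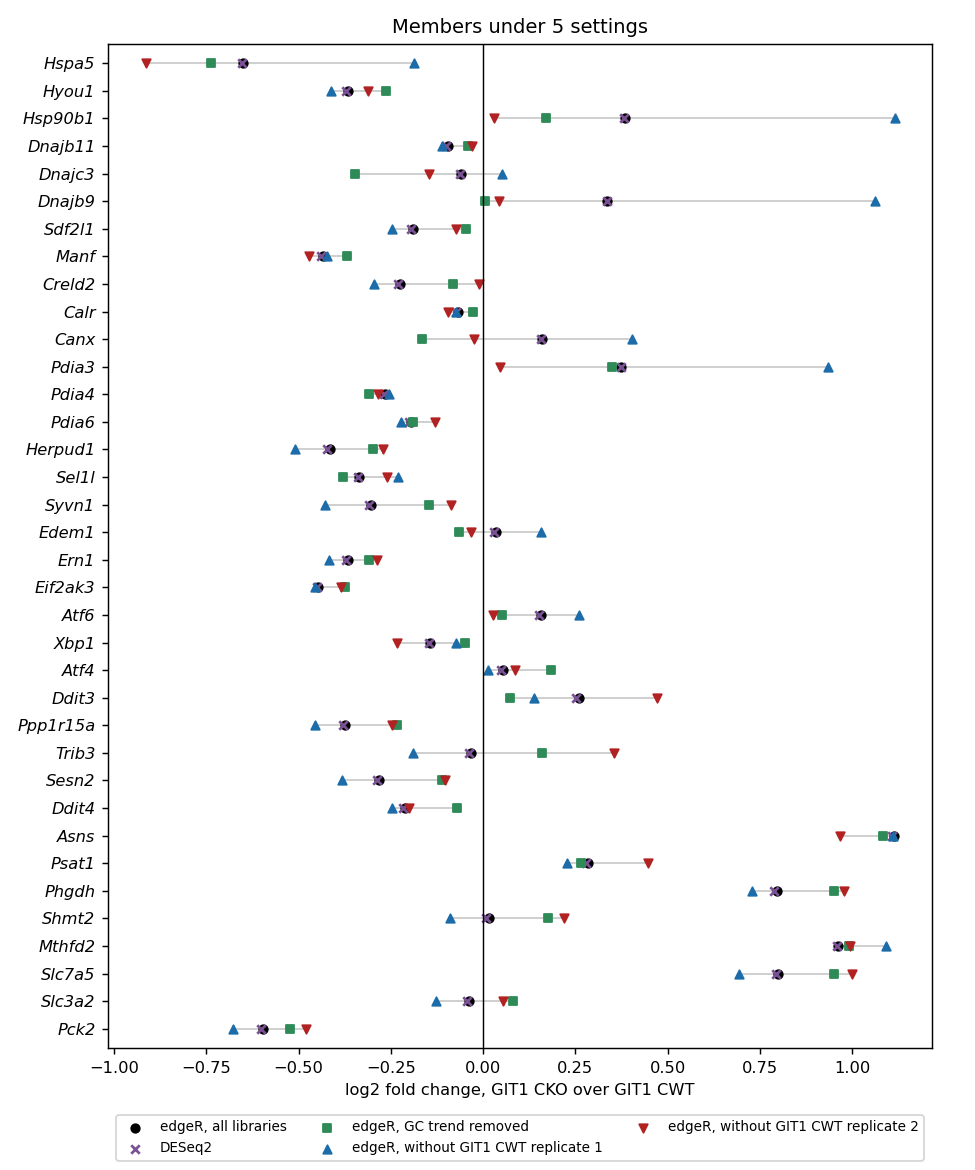
Log2 fold change (GIT1 CKO over GIT1 CWT, x axis) of the 36 members under 5 settings: edgeR with all libraries, DESeq2, edgeR with the trend over GC content taken out, and edgeR without GIT1 CWT replicate 1 or 2. The grey line joins the lowest and highest value of each gene and is long for Hsp90b1, Dnajb9, Pdia3 and Hspa5 and short for Eif2ak3, Pdia4 and Asns.

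Other genes of the same pathways were read from lists of textbook members. Of 34 other ER folding and quality control genes, 0 were called and 1 passed the study's rule, Txndc5, an ER oxidoreductase. It had 64.1, 63.4 and 126 CPM in GIT1 CKO, against 158, 197 and 171 CPM in GIT1 CWT, with a log2 fold change of -1.05 (adjusted p = 0.168 in edgeR). The groups did not overlap, and GIT1 CKO replicate 3 stood above the other GIT1 CKO libraries. Of 23 genes of ER translocation and glycosylation, 0 were called. Of the most abundant, Rpn1, a subunit of the oligosaccharyltransferase, had 284, 295 and 284 CPM in GIT1 CKO and 321, 328 and 328 CPM in GIT1 CWT, and Ssr3, a subunit of the translocon-associated complex, averaged 295 ± 15.5 CPM in GIT1 CKO, against 236 ± 111 CPM in GIT1 CWT (SD, n = 3 each). The first list had a median log2 fold change of -0.06 and the second of -0.02.

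Of 24 other UPR and eIF2 signalling genes, 1 was called. Creb3l2, a membrane-bound transcription factor cut like ATF6, fell to 34.6, 34.6 and 33.7 CPM in GIT1 CKO, against 55.7, 51.5 and 55.4 CPM in GIT1 CWT (log2 fold change -0.66, SE 0.0910, adjusted p = 0.0414 in edgeR). Its libraries were tight in both groups, and its log2 fold change stayed between -0.68 and -0.62 over the alternatives, with adjusted p-values of up to 0.283. Over the list the median was -0.05.

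Of 30 other amino acid and tRNA synthetase genes that ATF4 induces, 28 were tested and 1 was called. Slc7a1, a transporter of cationic amino acids, rose to 12.8, 13.5 and 12.4 CPM in GIT1 CKO, against 7.67, 6.21 and 6.99 CPM in GIT1 CWT (log2 fold change 0.89, SE 0.129, adjusted p = 0.0449 in edgeR). Its groups lay far apart for their spread, and the adjusted p was up to 0.283 over the alternatives. Over the 28 the median was 0.09, with 19 above 0 and 9 below. Of 20 other stress genes induced by ATF4, 18 were tested and 0 called. Sqstm1, an autophagy receptor, passed the study's rule at 351, 352 and 379 CPM in GIT1 CKO, against 391.9, 732 and 610 CPM in GIT1 CWT (log2 fold change -0.68, adjusted p = 0.206). The median of this list was -0.12.

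Levels between genes were compared only per kb of exon, as CPM per kb (RPKM). The 6 highest members in GIT1 CKO were chaperones: Pdia3 at 221 ± 7.65, Calr at 219 ± 9.75, Hsp90b1 at 198 ± 7.68, Canx at 94.4 ± 8.65, Hspa5 at 75.2 ± 1.78 and Pdia4 at 52.1 ± 0.751 RPKM (SD, n = 3). Pdia3 and Calr lay within 1 SD of each other there. In GIT1 CWT the same 6 were highest, led by Calr at 230 ± 18.02 RPKM, and Pdia3 at 170 ± 103 RPKM and Hsp90b1 at 152 ± 109 RPKM were within 1 SD of it and of each other. The amino acid genes were a mixed set in level: Slc3a2 lay at 42.6 ± 0.587 RPKM in GIT1 CKO and 43.7 ± 4.93 RPKM in GIT1 CWT, whereas Slc7a5 lay at 1.05 ± 0.0647 RPKM in GIT1 CKO and 0.605 ± 0.122 RPKM in GIT1 CWT. The median level was 3.84 RPKM in GIT1 CKO and 2.53 RPKM in GIT1 CWT over the amino acid genes, against 43.9 RPKM in GIT1 CKO and 50.2 RPKM in GIT1 CWT over the chaperones. The 4 amino acid genes that were higher in GIT1 CKO were thus among the least abundant members, with 1875 to 6683 counts over the 6 libraries.

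Markers of other cells were read beside these values. The 12 plasma cell and B cell markers, cells with a large ER, summed to 114 to 123 CPM in GIT1 CKO and 138 to 151 CPM in GIT1 CWT, with 8 of 12 under 1 CPM in every library. The 8 stromal and endothelial markers summed to 52.4 to 58.9 CPM in GIT1 CKO and 37.4 to 43.5 CPM in GIT1 CWT. All 8 had a log2 fold change above 0, with a median of 0.39, and 1 was called higher by edgeR. The 10 LPS response genes summed to 192 to 197 CPM in GIT1 CKO and 171 to 215 CPM in GIT1 CWT. In every library 3 of them were under 1 CPM, and 1 of these was at 0 throughout. Nfkbia and Cxcl10 weigh most in this sum. Of the 8 LPS response genes tested, 6 had a log2 fold change above 0, with a median of 0.68 that was above that of the amino acid genes, and 0 were called by edgeR, 3 were called higher by DESeq2 and 4 were higher by the study's rule. The 6 osteoclast markers summed to 1407 to 1444 CPM in GIT1 CKO and 941 to 1237 CPM in GIT1 CWT, most of it Mmp9, and of the 4 tested 2 were above 0 and 2 below, with 0 called by edgeR. In these bulk libraries fewer cells of a type and less RNA per cell cannot be told apart. The median log2 fold change of the cell cycle genes given above, 0.81, was also above that of the amino acid genes, and 7 of the 10 were higher by the study's rule. The part of these markers, and of the cell cycle genes, in the differences of the members was not tested.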

How the data were processed

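The deposited table held raw counts per gene, whole numbers that the authors made from reads trimmed with fastp 0.17.1 and aligned with HISAT2 2.1.0, according to the submitters' processing notes, which also name DESeq2 1.18.1 and R 3.4.3. How reads were counted, and with which build and strand setting: not given in the sources used here. GENCODE M21 (GRCm38) held 52403 of the gene IDs, 96.5% of them with an equal start, and 32 of the 36 members had the same start and end. Gene coordinates are those of the table. The deposited signal columns, the authors' normalized counts, were the counts divided by 1 size factor per library in 100% of genes, and they were checked and not used. The columns of the authors' own comparison, fold changes and p-values, were not used.

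Counts were fitted in R 4.3.3 with edgeR 4.0.16: filterByExpr with a minimum count of 10, which kept 16287 of 25239 genes with counts and all 36 members, TMM scaling, and the robust quasi-likelihood F-test of GIT1 CKO against GIT1 CWT with no other term, two-sided. Adjustment was over all genes tested, with a threshold of 0.05 (common biological coefficient of variation 0.277). CPM are relative to the TMM-scaled total. The SE was derived from the fit, as the size of the log2 fold change over the square root of its F statistic. The 95% interval was derived from this SE and the t distribution. The step was also run on simulated counts with a dispersion below the fitted one and no GC trend. That run does not show how the test performs on these libraries. DESeq2 1.42.0 and limma-voom (limma 3.58.1), 3 other scalings, 2 other filters, counts thinned to a total of 61895190, a block for the replicate number, a GC trend removed per library (lowess, span 0.3), the table without genes of chromosomes X and Y and the fit without each library in turn made 17 alternatives. At 3 counts, the limit that a count of 0 allows was 0.0190 to 0.0485 CPM, for counting error only, since reads carry no molecular identifiers.

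Named genes are all 36 members and, from each list of other pathway genes, the called ones, else those past the study's rule, else the 2 most abundant. The members and lists were chosen with earlier results of these data known. Some members' counts may hold reads of overlapping genes. No protein sequences were used here.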

Additional observations from a re-analysis of the deposited data

How the results depend on the processing

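The members had 964 to 410964 counts over the 6 libraries. The count of members called was 0 in edgeR, 7 in DESeq2 and 9 with the GC trend removed, and 0 to 5 when a library was left out. The count past the study's rule was 5, and 4 to 8 when a library was left out, the 8 without GIT1 CWT replicate 1. Genes called over the whole table numbered 123, against 1108 in DESeq2, 807 with the GC trend removed, 1 with the replicate number as a block, and 1 to 1159 when a library was left out: 3 without GIT1 CKO replicate 1, 4 without GIT1 CKO replicate 2, 1 without GIT1 CWT replicate 3, 400 without GIT1 CWT replicate 2 and 1159 without GIT1 CWT replicate 1. The median log2 fold change of the amino acid genes ran from 0.42 to 0.71 when a library was left out. The causes were not tested. Same-numbered libraries did not deviate together (r of -0.048, 0.040 and 0.0075). This gives no sign of pairing by number, but with 3 libraries per group it cannot exclude pairing. Under the replicate block 0 members were called. Of 36 members, 28 kept their direction under all 17 alternatives. With the GC trend removed, the log2 fold change was -0.17 for Canx, -0.0666 for Edem1, 0.158 for Trib3 and 0.0809 for Slc3a2. That of Trib3 was also 0.0150 in limma-voom, 0.00853 on total counts, 0.0103 with no filter, 0.0193 with thinned counts and 0.0260 with the replicate block. That of Slc3a2 was 0.00118 on total counts and 0.00286 with no filter, and that of Shmt2 was -0.0218 with upper-quartile scaling. When a library was left out, it ran from -0.147 to 0.0515 for Dnajc3, -0.108 to 0.0172 for Calr, -0.0246 to 0.402 for Canx, -0.0336 to 0.157 for Edem1, -0.0188 to 0.115 for Atf4, -0.191 to 0.355 for Trib3, -0.091 to 0.219 for Shmt2 and -0.128 to 0.0537 for Slc3a2. With no filter on low counts the median over all genes was 0.10, against 0.01.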
